A study of Rattus norvegicus with 24 samples.

Results

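Potassium channel genes were followed through compression injury of the rat spinal cord, as all genes on the array whose symbol starts with Kcn. The inward rectifier Kcnj10 was set aside. Of the 14218 genes measured, 74 are such genes, and each stands for the brightest of its probe sets, by the mean over the 24 arrays. With "bright" meaning a mean log2 value of at least 5 in 1 or more of the groups, 22 of the 74 genes were bright and 52 were dim, against 9234 bright and 4984 dim among all genes. The choice used no difference between groups. Bright and dim genes are described apart, because a gene that is bright only through 1 group tends to differ between groups by that choice. No count over the bright genes is therefore evidence about all 74.

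All animals were female Wistar rats with a T6 to T8 laminectomy, and no source used here gives their age. The sham group had the laminectomy alone, at a sampling time that the labels do not state. The other groups had the cord compressed at T7 with a 35 g clip for 1 min and were sampled on day 1, 3, 7, 14 or 56. Each group held 4 rats, each with an array of its own, and RNA came from 5 mm of cord around the epicenter. Different rats make up each day, so no animal was followed over time. By the methods the pre-processing was done for 1 time point at a time, so a shift shared by all arrays of 1 day cannot be told apart from the day itself.

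Potassium channels let potassium leave or enter a cell and so set its resting potential and the shape and rate of its action potentials. Voltage-gated (Kv) channels are tetramers of pore-forming subunits, to which accessory subunits attach. In the spinal cord Kv1 channels sit beside the nodes of Ranvier under the myelin, Kv3 channels serve neurons that fire fast, Kv4 channels carry a transient current in cell bodies and dendrites, and Kv7 channels carry the M-current. Inward rectifiers (Kir) and two-pore-domain (K2P) channels hold the resting potential of neurons and glia, and calcium-activated channels couple potassium efflux to intracellular calcium. Kcnn4, a calcium-activated channel of blood cells, microglia and macrophages, and Kcnk6, a K2P channel of macrophages, are known outside neurons.

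Promoter sequence was available from RefSeq (GRCr8) for 51 of the 74 genes, 16 of them bright, as the 250 bases before and the 50 bases after the annotated start. These windows were rich in G and C: the median was 51.7% over all 33469 rat windows, 64.7% over the 51 genes and 65.7% over the 16 bright genes. The GC box GGGCGG, read on either strand, occurred in 33.1% of all windows, in 30 of the 51 and in 9 of the 16 (Kcna2, Kcnc1, Kcnd3, Kcne4, Kcnip1, Kcnma1, Kcnmb4, Kcnq5 and Kcns3). TATAAA occurred in 14.2% of all windows, in 2 of the 51 and in 0 of the 16. TGANTCA occurred in 7.3%, 3 and 1. It is a looser form of the AP-1 site, in which N is any base, so a match need not be an AP-1 site. TGACGTCA, the letters of a CRE, occurred in 1.8%, 0 and 0. All were read on both strands. Such matches are a description of the letters. Of the 51 genes, 6 had more than 1 window and only 1 was read, whereas the figures for all rat windows count every window. Among the bright genes the share of G and C ran from 34.0% in Kcnj16 to 80.7% in Kcnmb4. 3 windows are shown because the genes fell together on day 1 while their sequences differ: Kcna2 (chr2:197393280-197393579, plus strand), with 73.3% G and C and 4 GC boxes, Kcnc1 (chr1:106038997-106039296, plus strand), with 74.0% and 3, and Kcnj16 (chr10:96517074-96517373, plus strand), with 34.0%, no GC box and the only TGANTCA match of the 16. Capitals mark a GC box, or its reverse complement, in the first pair and the TGANTCA match in Kcnj16.
Kcna2: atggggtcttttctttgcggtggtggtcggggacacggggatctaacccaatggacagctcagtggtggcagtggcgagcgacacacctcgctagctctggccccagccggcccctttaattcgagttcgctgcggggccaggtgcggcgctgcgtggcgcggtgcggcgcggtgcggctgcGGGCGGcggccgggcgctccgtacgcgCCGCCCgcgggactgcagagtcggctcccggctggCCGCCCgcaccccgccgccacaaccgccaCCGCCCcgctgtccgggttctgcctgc
Kcnc1: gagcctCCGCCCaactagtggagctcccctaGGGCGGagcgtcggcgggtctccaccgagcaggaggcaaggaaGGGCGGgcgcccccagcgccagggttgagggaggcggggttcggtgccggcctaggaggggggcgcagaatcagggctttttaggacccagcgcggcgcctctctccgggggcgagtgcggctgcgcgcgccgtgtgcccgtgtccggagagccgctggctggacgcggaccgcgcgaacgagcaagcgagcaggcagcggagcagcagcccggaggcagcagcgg
Kcnj16: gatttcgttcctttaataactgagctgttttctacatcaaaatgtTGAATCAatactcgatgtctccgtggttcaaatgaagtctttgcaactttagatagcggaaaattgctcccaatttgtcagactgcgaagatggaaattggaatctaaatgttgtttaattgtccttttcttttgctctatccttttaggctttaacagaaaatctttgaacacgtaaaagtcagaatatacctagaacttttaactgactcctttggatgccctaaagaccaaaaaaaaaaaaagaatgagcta

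Values below are the deposited log2 values, differences are log2 differences between group means, and a gene is called higher or lower where its adjusted p lies under 0.05 (limma, Benjamini-Hochberg over 20832 probe sets). Because each gene has its own probe set, levels are compared between groups for 1 gene and not between genes. Arrays of 1 group correlated at 0.973 to 0.996, and the lower quartile of an array lay at 2.43 to 2.60, the level of probe sets with little signal. In a bulk sample fewer cells of a type and less RNA per cell cannot be told apart. The tissue label was met by the markers: the 10 neuronal and the 7 astrocyte genes listed were all bright, and the neuronal list averaged 10.70 to 11.02 in the sham rats.

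The bright potassium channel genes mostly fell. On day 1 17 of the 22 were lower than in sham and 2 were higher, whereas among all bright genes 27.6% were lower and 41.2% higher. On day 3 10 were lower and 3 higher, against 20.2% and 34.7%. On day 7 16 were lower and 3 higher, against 23.1% and 35.1%. On day 14 14 were lower and 3 higher, against 22.3% and 23.4%, and on day 56 14 and 3, against 21.3% and 24.1%. The median difference of the 22 genes was −2.74 on day 1, −1.12 on day 3, −1.96 on day 7, −1.63 on day 14 and −1.29 on day 56, while the median over all bright genes stayed between 0.04 and 0.17. All 22 were called on at least 1 day, 17 only downward and 5 only upward (Kcnn4, Kcnk6, Kcne4, Kcnma1 and Kcnmb4). The share of all bright genes called on at least 1 day was not computed. Kcnk1 and Kcnj11 were bright through the sham group alone (means 5.95 and 5.66), Kcnk6 through day 1 (5.18) and Kcnma1 through day 3 (5.06). Kcnq5, Kcnip4 and Kcns3 were bright through sham and day 3 alone, and Kcnn4 through the injured groups alone. For these genes the brightness limit favours calls in the direction they took. The highest group mean among the dim genes was 4.70, that of Kcnj6 in sham. The day 3 count of lower genes is the least firm. It was 6 of the 22 without sham rat 1, 5 without sham rat 2, 4 without sham rat 3, 6 without day 3 rat 2, 5 without day 3 rat 3 and 6 without day 3 rat 4.

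**Figure D1:**
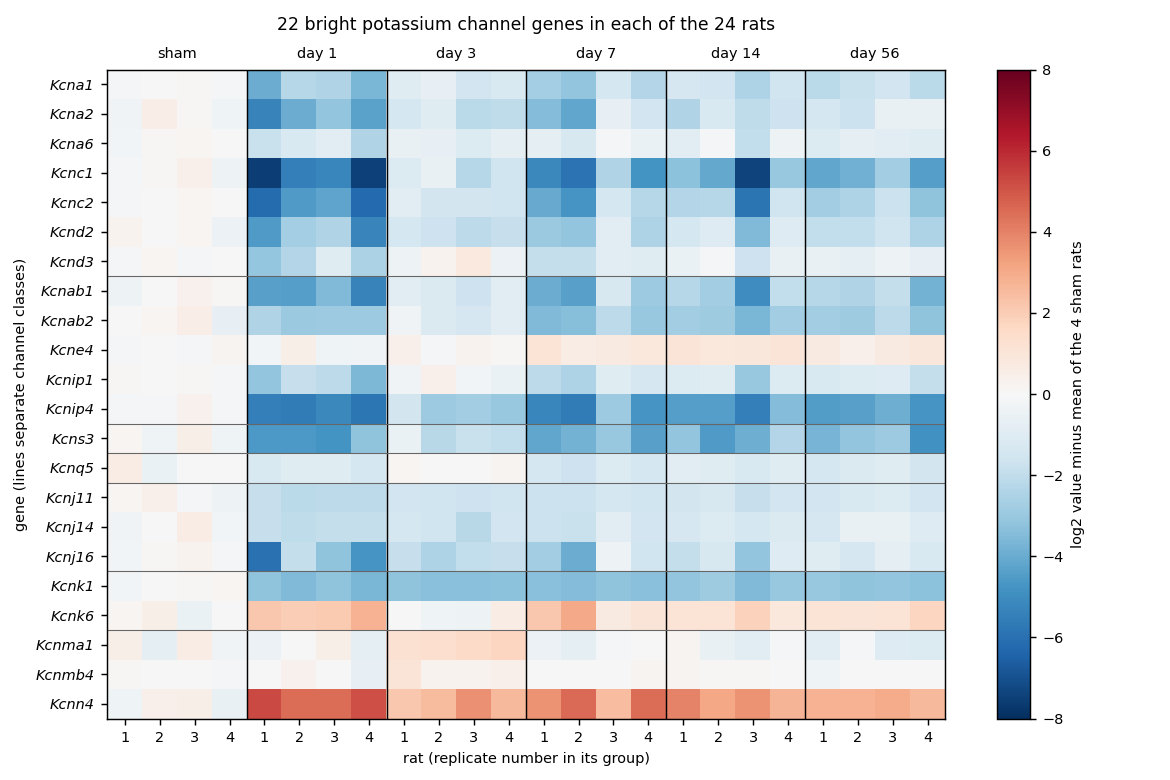
Log2 value of each of the 22 bright potassium channel genes in each of the 24 rats, minus the mean of the 4 sham rats, with blue for lower and red for higher values and with genes grouped by channel class. Most of the genes are bluest on day 1 and paler on day 3, and Kcnn4 is red in every injured rat.

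The Kv1 pore-forming genes of myelinated axons, Kcna1 and Kcna2, fell steeply on day 1 and were partly back on day 3. Kcna2 stood at 13.0, 13.84, 13.39 and 12.96 in sham rats 1 to 4 and at 7.98, 9.33, 10.15 and 9.03 in day 1 rats 1 to 4. It stood at 11.89, 12.34, 11.15 and 11.25 on day 3, at 9.82, 9.17, 12.67 and 11.76 on day 7, at 10.90, 12.10, 11.27 and 11.67 on day 14 and at 11.90, 11.59, 12.73 and 12.68 on day 56. No injured rat reached the lowest sham rat at any time. The difference from sham was −4.18 (SE 0.60, adjusted p = 8.65e-06) on day 1, which is 18.1-fold, −1.64 (SE 0.60, adjusted p = 0.0377) on day 3 and −2.44 (SE 0.60, adjusted p = 0.00299) on day 7. By day 56 it was −1.07 (95% interval −2.33 to 0.18) and no longer passed (adjusted p = 0.215), and Kcna2 rose between days 1 and 56 by 3.10 (SE 0.60, adjusted p = 0.00059). The day 3 call of Kcna2 was lost under median centring of the arrays and on leaving out any of 5 single arrays. On day 14 the difference was −1.81 (limma adjusted p = 0.0271), a call lost on leaving out any of 4 single arrays. A dim second probe set of Kcna2 moved by 0.07 from day 1 to day 3 (limma adjusted p = 0.773). With the probe sets averaged, the day 1 difference was −2.38 and the rise to day 3 was 1.30, both still called.

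Kcna1, the partner of Kcna2 in these channels, was lower on all 5 days. It stood at 11.62, 11.76, 11.82 and 11.63 in the sham rats, at 7.72, 9.45, 9.33 and 8.06 on day 1 and at 10.72, 11.03, 10.18 and 10.52 on day 3. The differences from sham were −3.07, −1.10, −2.40, −1.72 and −1.90 on days 1, 3, 7, 14 and 56. The highest injured rat of any day, at 11.03 on day 3, lay below all 4 sham rats. Kcna6, another Kv1 pore subunit, had smaller differences, at −1.58, −0.76, −0.69, −0.86 and −0.92, of which days 1 and 56 were called, and the day 56 call (adjusted p = 0.042) was lost in 10 of the 36 other settings. RefSeq places Kcna1 next to Kcna6 on chromosome 4, with the dim Kcna5 on the other side of Kcna1, and Kcna2 next to the dim Kcna3 on chromosome 2.

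The Kv3 genes of fast-firing neurons were far below sham on day 1. Kcnc1 stood at 10.14, 10.28, 10.58 and 9.82 in the sham rats and at 2.67, 4.74, 4.98 and 2.72 on day 1, where rats 1 and 4 lay near the lower quartile of their arrays. On day 3 the 4 rats were back at 9.09, 9.61, 7.93 and 8.64. They stood at 5.03, 4.28, 7.81 and 5.44 on day 7, 6.96, 6.09, 2.78 and 7.18 on day 14 and 6.08, 6.39, 7.41 and 5.78 on day 56. The day 1 difference of −6.43 (SE 0.85, adjusted p = 3.26e-06) is not exact in size, because of the rats near the lower quartile. On day 3 the difference was −1.39 (95% interval −3.16 to 0.38) and did not pass (adjusted p = 0.175), although all 4 rats lay below all sham rats. From day 1 to day 3 Kcnc1 rose by 5.04 (SE 0.85, adjusted p = 0.000161), and from day 3 to day 7 the difference was −3.18 (SE 0.85, adjusted p = 0.00794). Kcnc2, the other bright Kv3 gene, ran a like course with differences from sham of −5.30, −1.35, −3.09, −3.02 and −2.54, called on every day but day 3, and rose by 3.94 (SE 0.77, adjusted p = 0.000643) from day 1 to day 3. This rise was seen in 1 probe set of Kcnc2: its other bright ones, called lower on all 5 days, moved by 0.44 (adjusted p = 0.254) and 0.48 (adjusted p = 0.19), and with the probe sets averaged the rise was 0.81.

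The Kv4 genes of the transient current were lower on day 1 too. Kcnd2 stood at 10.52, 10.25, 10.36 and 9.77 in the sham rats and at 5.72, 7.47, 7.84 and 4.91 on day 1, and it was lower on all 5 days, with differences of −3.74, −1.74, −2.37, −1.75 and −1.98. On day 14 rat 3 stood at 6.68 against 8.85 to 9.22 in the others, and the call was lost without it and without sham rat 1, 2 or 3. Kcnd3 was back around its sham level on day 3. It stood at 8.94, 9.18, 8.96 and 9.01 in sham, at 5.96, 6.68, 8.07 and 6.49 on day 1 and at 8.63, 9.28, 9.83 and 8.52 on day 3, where the groups overlapped. Its differences were −2.22, 0.05, −1.42, −0.72 and −0.60, with calls on days 1 and 7 only. All 7 bright Kv1 to Kv4 genes were thus lower on day 1, 3 on day 3, 6 on day 7, 5 on day 14 and 5 on day 56.

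**Figure D2:**
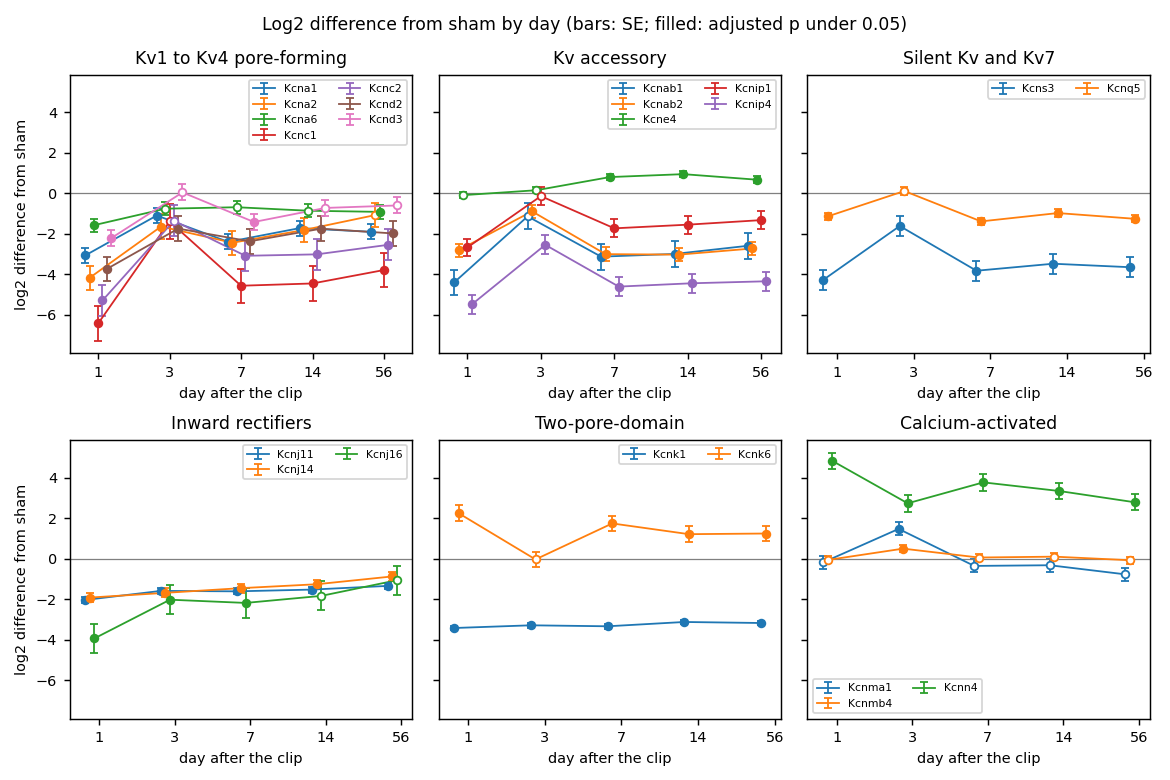
Log2 difference from sham (vertical axis) on each day (horizontal axis, days not to scale) for the bright genes of each class, with bars for 1 SE and filled points where the adjusted p is under 0.05. All 7 Kv1 to Kv4 genes lie higher on day 3 than on day 1, Kcnk1 lies below −3 on every day, and Kcnn4 stays above 2 on every day. Limma's tests between days, not drawn here, called 6 of these 7 rises and 3 falls from day 3 to day 7.

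Among the accessory subunits of Kv channels, 4 of the 5 bright genes fell and 1 rose. Kcnip4, a calcium-binding partner of Kv4, had the largest difference from sham of the 74 genes on day 56. It stood at 8.87, 8.96, 9.39 and 8.98 in the sham rats, at 3.60, 3.48, 3.87 and 3.29 on day 1, at 7.59, 6.12, 6.29 and 6.02 on day 3 and at 4.58, 4.74, 5.14 and 4.35 on day 56. Its differences were −5.49, −2.55, −4.61, −4.44 and −4.35, all called, and on day 56 it was 20.4-fold lower (adjusted p = 1.54e-06). Kcnip1, of the same family, stood at 8.20, 8.12, 8.21 and 7.97 in sham and at 7.87, 8.56, 7.93 and 7.60 on day 3, so that these groups overlapped, and its differences were −2.67, −0.14, −1.73, −1.55 and −1.32, called on every day but day 3.

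The beta subunits of Kv1 channels followed. Kcnab1 differed by −4.40, −1.14, −3.13, −3.0 and −2.59, called on every day but day 3. Kcnab2, which accompanies Kcna1 and Kcna2 on axons, stood at 8.72, 8.92, 9.25 and 8.07 in the sham rats, 6.31, 5.75, 5.84 and 5.81 on day 1, 8.48, 7.58, 7.43 and 7.91 on day 3, 5.22, 5.32, 6.67 and 5.73 on day 7 and 5.93, 5.92, 6.67 and 5.54 on day 56. Between days 1 and 56 the difference of Kcnab2 was 0.09 with a 95% interval of −0.60 to 0.78, while Kcna1 and Kcna2 were higher on day 56 than on day 1 by 1.17 and 3.10. Its day 3 call (adjusted p = 0.0405) was lost in 10 of the 36 other settings.

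Kcne4, a single-pass subunit that dampens several Kv channels, was the accessory gene that rose, and it rose late. It stood at 6.88, 6.95, 6.94 and 7.25 in the sham rats, at 8.10, 7.61, 7.70 and 7.82 on day 7, at 8.02, 7.87, 7.91 and 8.02 on day 14 and at 7.72, 7.39, 7.72 and 7.89 on day 56, above all sham rats on each of these days. The differences were −0.09, 0.15, 0.80, 0.95 and 0.67, of which the last 3 were called. The listed pericyte and vascular smooth muscle genes averaged 6.02 to 6.31 in the sham arrays and 5.71 to 6.19 on day 7. They averaged 6.31 to 6.56 on day 14 and 6.44 to 6.86 on day 56. Of these 7 genes, 2 were higher and 2 lower on day 7, 2 and 1 on day 14 and 3 and 1 on day 56. The part of these cells in the result was not tested.

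Among the subunits that form no channel of their own, Kcns3 was the bright one of 7. It stood at 8.09, 7.62, 8.44 and 7.62 in the sham rats, at 3.38, 3.36, 3.19 and 4.71 on day 1, at 7.44, 5.74, 6.16 and 5.97 on day 3 and at 4.26, 4.78, 5.06 and 3.08 on day 56. The differences were −4.29, −1.62, −3.83, −3.48 and −3.65, all called, and Kcns3 was 12.6-fold lower on day 56. Kcnq5, a subunit of the M-current and the bright one of the 3 Kv7 genes, stood at 5.78, 4.61, 5.14 and 5.13 in sham and at 5.35, 5.17, 5.22 and 5.38 on day 3, within the sham range. It was lower on the other 4 days, with differences of −1.14, 0.11, −1.39, −0.98 and −1.26.

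The 3 bright inward rectifiers fell on day 1 and kept below sham on day 3. Kcnj11, the pore of the ATP-sensitive channel, stood at 5.83, 6.07, 5.50 and 5.24 in the sham rats, at 3.80, 3.52, 3.59 and 3.56 on day 1 and at 4.15, 4.44, 4.55 and 4.11 on day 56. Kcnj14, a strong rectifier, stood at 7.66, 7.92, 8.54 and 7.76, at 6.10, 5.95, 6.09 and 6.05 and at 6.64, 7.40, 7.39 and 6.93 in these groups. Both were lower on all 5 days, with differences of −2.04, −1.59, −1.62, −1.53 and −1.35 for Kcnj11 and −1.92, −1.69, −1.46, −1.27 and −0.88 for Kcnj14, and Kcnj14 rose by 1.04 (SE 0.22, adjusted p = 0.00148) from day 1 to day 56.

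Kcnj16, which forms glial channels together with Kcnj10, had widely spread day 1 rats. It stood at 9.30, 9.62, 9.79 and 9.44 in the sham rats and at 3.57, 7.65, 6.32 and 4.83 on day 1. It stood at 7.71, 7.06, 7.57 and 7.69 on day 3, at 6.77, 5.55, 9.13 and 7.94 on day 7, at 7.63, 8.29, 6.39 and 8.48 on day 14 and at 8.58, 8.17, 8.78 and 8.34 on day 56. Its differences were −3.94, −2.03, −2.19, −1.84 and −1.07, of which the first 3 were called, and on day 56 the 95% interval was −2.58 to 0.44. The day 3 call was lost on leaving out any of 5 single arrays. The day 7 call was lost in 4 of the 36 other settings. The rise from day 1 to day 3 was at the edge (adjusted p = 0.0493) and was lost in 27 of the 36 other settings. A second bright probe set of Kcnj16 did not move between these days (−0.002, limma adjusted p = 0.998). Between days 1 and 56 Kcnj16 rose by 2.87 (SE 0.72, adjusted p = 0.00497). Of the 7 astrocyte genes, 6 were lower on day 1, 6 on day 3, 5 on day 7, 2 on day 14 and 2 on day 56, and their mean log2 value lay at 9.90 to 10.48 in sham, 7.54 to 8.60 on day 1 and 9.28 to 9.36 on day 56. The part of astrocytes in the course of Kcnj16 was not tested.

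Of the bright K2P genes 1 was lower and 1 was mostly higher. Kcnk1, a weakly inward rectifying leak channel, stood at 5.75, 5.93, 6.04 and 6.08 in the sham rats and between 2.28 and 3.14 in all 20 injured rats. Its differences were −3.43, −3.29, −3.34, −3.13 and −3.18 (each ± 0.12 SE), all called. The injured rats lay near the lower quartile of their arrays, so the size of the drop is not exact, and the difference between days 3 and 1 was not called (0.13, 95% interval −0.12 to 0.38).

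Kcnk6 was higher on 4 of the 5 days. It stood at 3.07, 3.38, 2.38 and 2.93 in the sham rats, 5.10, 4.88, 5.0 and 5.72 on day 1, 2.92, 2.62, 2.52 and 3.54 on day 3, 5.10, 5.97, 3.67 and 3.97 on day 7, 4.04, 4.02, 4.76 and 3.77 on day 14 and 4.02, 3.98, 4.04 and 4.66 on day 56. Every rat of days 1, 7, 14 and 56 lay above every sham rat, and the day 3 rats overlapped sham. The differences were 2.24, −0.04, 1.74, 1.21 and 1.24, the day 1 value being 2.24 (SE 0.39, adjusted p = 7.61e-05). From day 1 to day 3 Kcnk6 fell by 2.28 (adjusted p = 0.000193) and from day 3 to day 7 it rose by 1.78 (adjusted p = 0.00181). The calls on days 14 and 56 were lost when the gene's probe sets were averaged, without sham rat 3, and without day 14 rat 3 and day 56 rat 4 respectively.

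Kcnn4 rose most of all 74 genes and was the only one higher on all 5 days. It stood at 3.88, 4.61, 4.66 and 3.63 in the sham rats and at 9.47, 8.64, 8.68 and 9.34 on day 1. It stood at 6.35, 6.74, 7.86 and 6.77 on day 3, at 7.77, 8.75, 6.69 and 8.65 on day 7, at 8.16, 7.31, 7.76 and 6.93 on day 14 and at 7.0, 7.01, 7.16 and 6.77 on day 56, so that every injured rat lay above every sham rat. The difference was 4.84 (SE 0.41, adjusted p = 2.01e-08) on day 1, which is 28.6-fold, and 2.73, 3.77, 3.34 and 2.79 on the later days, the last being 6.9-fold (adjusted p = 3.65e-05). Kcnn4 was lower on day 3 than on day 1 by 2.10 (adjusted p = 0.000586).

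Several lists of blood-borne and phagocytic cell markers were high on some of the days on which Kcnn4 and Kcnk6 were. Of the 10 microglia and macrophage genes listed, 10 were higher on day 1, 6 on day 3 (with 1 lower), 10 on day 7, 10 on day 14 and 9 on day 56. Their mean log2 value was 6.83 to 8.69 in the sham arrays, 11.42 to 11.70 on day 1, 9.47 to 10.15 on day 3, 10.56 to 11.92 on day 7, 10.68 to 11.23 on day 14 and 10.80 to 11.0 on day 56. Red cell genes, whose cells also carry Kcnn4, averaged 6.48 to 7.46 in sham, 7.10 to 10.04 on day 1, 7.63 to 10.08 on day 3 and 5.83 to 6.07 on day 7. Neutrophil genes averaged 2.90 to 3.10 in sham, 6.07 to 7.16 on day 1, 5.78 to 6.21 on day 3, 2.96 to 5.16 on day 7, 3.02 to 4.27 on day 14 and 2.91 to 3.05 on day 56. On day 3 limma called 2 of the 5 neutrophil genes and 3 of the 4 red cell genes measured higher, so these means rest on part of each list. Of the 5 T cell genes listed, 4 were dim in every group, and limma called none higher on any day, at an unadjusted p under 0.05 either. The part of these cells in the rise of Kcnn4 and Kcnk6 was not tested.

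The genes of the large-conductance calcium-activated channel were called against sham on day 3 alone. Its pore gene Kcnma1 stood at 4.03, 2.83, 4.20 and 3.28 in the sham rats, 3.10, 3.58, 4.05 and 2.86 on day 1, 4.83, 4.95, 5.13 and 5.31 on day 3, 3.12, 2.80, 3.47 and 3.53 on day 7, 3.83, 3.0, 2.69 and 3.52 on day 14 and 2.76, 3.45, 2.56 and 2.47 on day 56. The day 3 rats lay above all other 20 rats. Kcnma1 was higher than in sham by 1.47 (SE 0.32, adjusted p = 0.00118) on day 3, higher on day 3 than on day 1 by 1.66 (adjusted p = 0.00059) and lower on day 7 than on day 3 by 1.83 (adjusted p = 0.000239). The rise on day 3 was seen in 1 probe set, and with the probe sets of Kcnma1 averaged it was 0.43. On day 56 Kcnma1 differed from sham by −0.78, not called by limma (adjusted p = 0.0792) but called in 3 of the 36 other settings. Its neuronal beta subunit Kcnmb4 was higher by 0.49 on day 3 (adjusted p = 0.0309), which was lost without sham rat 3, without sham rat 4 and without day 3 rat 1, the highest of its group at 6.72. The mean of the endothelial list was also high on day 3, at 7.95 to 8.84 against 7.28 to 7.68 in sham. Limma called 2 of its 4 measured genes higher that day, and 1 was lower at an unadjusted p under 0.05. The part of endothelial cells in the result was not tested.

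**Figure D3:**
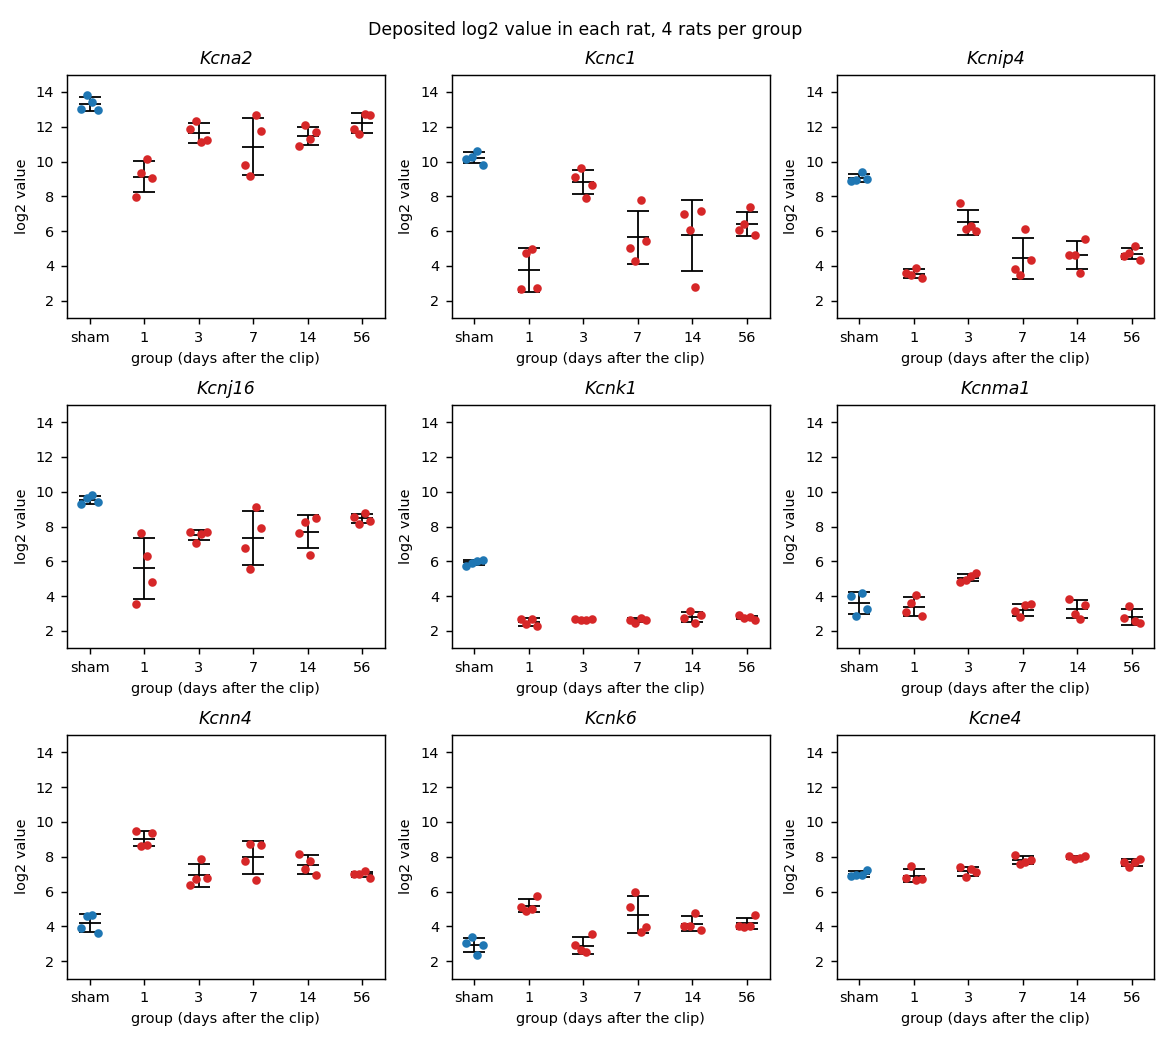
Deposited log2 value of 9 potassium channel genes in each rat (points, blue for sham and red for injured rats) by group, with the mean and SD of the 4 rats as bars, on 1 common scale. Kcnk1 keeps near 2.5 in all injured groups, Kcnc1 climbs on day 3 and drops again, Kcnma1 is high on day 3 alone, and Kcnn4 lies above sham throughout.

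Genes for proteins that bind or place potassium channels also fell. Of a list of 14 such genes, all measured and 6 of them dim, 11 were lower on day 1, 7 on day 3, 12 on day 7, 9 on day 14 and 8 on day 56. Among all bright genes 27.6%, 20.2%, 23.1%, 22.3% and 21.3% were lower on these days. Among all dim genes 13.1%, 13.5%, 44.8%, 6.74% and 7.34% were called in either direction. A share over a like mix of bright and dim genes was not computed. The median difference of the 14 was −1.98, −0.87, −1.37, −1.38 and −1.0 on the 5 days. None was higher on any day, at an unadjusted p under 0.05 either (limma). Dpp6, the transmembrane partner of Kv4, differed by −4.17, −0.97, −2.32, −2.36 and −1.77, called on days 1, 7 and 14. Cntnap2, which clusters Kv1 channels beside the nodes, differed by −4.60, −1.41, −2.80, −3.27 and −2.91, called on every day but day 3. Cntn2, its binding partner there, differed by −2.47, −2.23, −2.09, −1.78 and −1.65, called on all 5 days. Adam22 and Lgi1, bound to Kv1 channels, differed by −4.97 and −4.25 on day 1, and on day 56 by −2.13 and −0.71, of which the Lgi1 value was not called (adjusted p = 0.582).

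Of the 17 genes lower on day 1, 15 were lowest relative to sham on that day, and the exceptions were Kcnab2 and Kcnq5. The smallest difference came on day 3 in 11 of them, and on day 3 7 of the 17 were not called lower. Between consecutive days 18 of the 22 bright genes differed from day 1 to day 3 (16 upward), and 12 from day 3 to day 7 (10 downward). Among all bright genes 48.2% and 43.1% differed, in either direction. Of the 17, 14 rose from day 1 to day 3 and 9 fell from day 3 to day 7. The 17 were chosen by their day 1 arrays, which the test of day 3 against day 1 uses again, so the choice favours a rise. The share that rose among all bright genes lower on day 1 was not computed. With the probe sets of a gene averaged, limma no longer called the rises of Kcnj11 (adjusted p = 0.397) and Kcnj16 (adjusted p = 0.171). From day 7 to day 14 limma called 0 of the 22 (1 at an unadjusted p under 0.05, 0 by the methods' t-test after adjustment), against 11.4% of all bright genes. From day 14 to day 56 it called 0 (0 at an unadjusted p under 0.05, 0 by the adjusted methods' t-test), against 0.401%. From day 1 to day 56 13 differed, 12 of them upward, against 46.4% of all bright genes in either direction. The count for day 1 to day 56 was 8 without day 1 rat 1, 8 without day 1 rat 4 and 8 without day 56 rat 3. Of the 17, 3 were no longer lower than sham on day 56, Kcna2, Kcnd3 and Kcnj16, while 8 were lower on all 5 days, Kcna1, Kcnab2, Kcnd2, Kcnip4, Kcnj11, Kcnj14, Kcnk1 and Kcns3. Of these 8, the day 3 calls of Kcna1, Kcnab2, Kcnd2 and Kcns3 were lost on leaving out 1 of 4, 6, 6 and 2 arrays respectively. The share of all bright genes lower on all 5 days was not computed.

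Rats of 1 group differed together. Among the 17 genes that fell, day 7 rat 3 was the highest of its group in 17 and day 7 rat 2 the lowest in 14, day 14 rat 3 was the lowest in 15, and day 56 rat 3 was the highest in 14. Their mean log2 value was 7.51 in day 7 rat 3 against 5.66 to 6.59 in the other day 7 rats, and 5.63 in day 14 rat 3 against 6.94 to 7.26. The listed neuronal genes did the same, at 9.44 in day 7 rat 3 against 7.28 to 8.08, and at 6.19 in day 14 rat 3 against 8.43 to 9.02. Over the groups, the neuronal list averaged 6.34 to 8.02 on day 1, 9.71 to 10.38 on day 3, 7.28 to 9.44 on day 7, 6.19 to 9.02 on day 14 and 7.75 to 9.18 on day 56, with 10, 2, 10, 10 and 9 of its 10 genes lower. With day 7 rats 2 and 3 and day 14 rat 3 left out together, the counts of lower genes were 17, 14, 16, 13 and 14 on the 5 days. The part of the neuronal content of the samples in the course of the channel genes was not tested.

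The 52 dim genes gave mostly small differences. They include all 8 genes of the EAG family, 11 of the 14 inward rectifiers and 9 of the 11 K2P genes, and 31 of them had no group mean of 3 or more. On day 1 9 of them (17.3%) were called, against 13.1% of all dim genes. On day 3 11 (21.2%) were called, against 13.5%, on day 7 33 (63.5%), against 44.8%, on day 14 10 (19.2%), against 6.74%, and on day 56 9 (17.3%), against 7.34%. Of the 33 on day 7, 32 were lower and 24 differed by under 0.35 on the log2 scale. From day 7 to day 14 34 dim genes were called higher (65.4%), all by under 0.5, against 58.5% of all dim genes. The lower quartile of the arrays was 2.45 to 2.48 on day 7 and 2.53 to 2.60 on day 14.

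The dim genes with a called difference of at least 1 all fell. Kcnj6, a G protein-gated rectifier, stood at 3.87, 4.38, 5.62 and 4.94 in the sham rats and at 2.79, 2.62, 2.78 and 2.73 on day 1, and differed by −1.97, −1.21, −2.0, −1.89 and −1.95. Kcnq3, an M-current subunit, stood at 5.80, 4.41, 4.40 and 3.92 and 2.65, 2.64, 2.80 and 2.68 and differed by −1.94, −1.41, −0.75, −1.58 and −1.63, with day 7 not called. Kcnab3, a Kv1 beta subunit, differed by −1.51, −0.81, −1.57, −1.47 and −1.51 and the Kv3 gene Kcnc4 by −1.61, −0.79, −1.56, −1.06 and −1.14, all called. Kcnt1, a sodium-activated channel, differed by −1.01, −0.79, −1.19, −0.96 and −1.0, all called, and its sham rats were spread, at 4.31, 3.61, 5.40 and 3.08. Kcnk3, an acid-sensitive leak channel, differed by −0.91, −0.75, −1.06, −0.62 and −0.69, all called and only day 7 past 1.

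Several genes known in microglia, T cells or vessels were dim here. Kcna3, the Kv1 gene of T cells and microglia, stood between 2.03 and 2.41 in all rats, and Kcnj2, a strong rectifier, between 2.24 and 2.44. Kcnk13, a K2P channel of microglia, was called on day 7 at 0.74 (SE 0.24, adjusted p = 0.0202), where rats 1 and 2 stood at 3.09 and 3.22 and rats 3 and 4 at 1.71 and 1.90 against 1.72 to 1.76 in sham. Kcnj8, the ATP-sensitive channel pore of pericytes, differed from sham by 0.34, 0.0, −0.15, −0.06 and −0.15, none called.

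**Figure D4:**
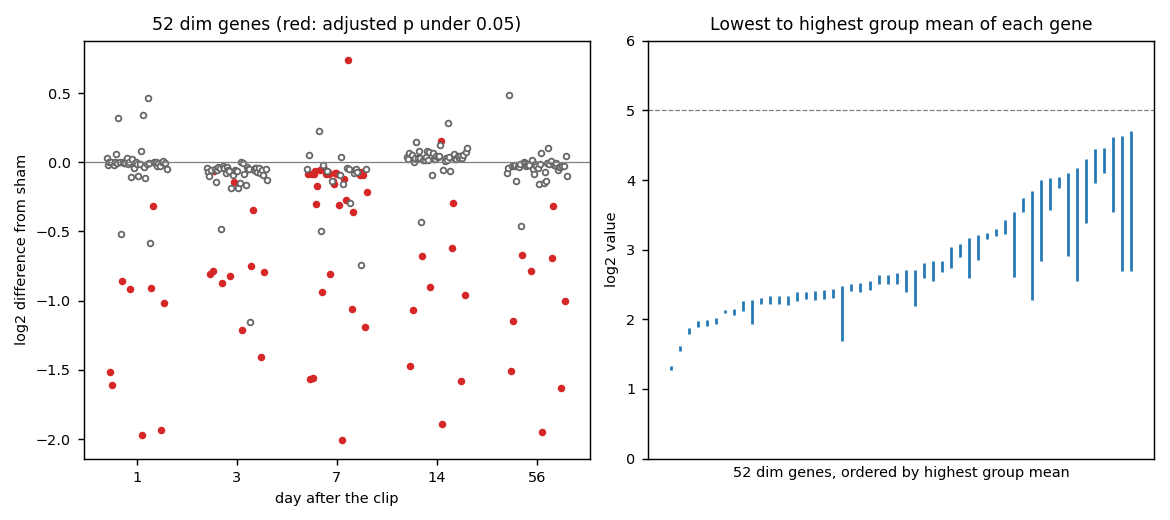
Left, log2 difference from sham of each of the 52 dim genes on each day, red where the adjusted p is under 0.05, and right, the range from the lowest to the highest of the 6 group means for each dim gene, with a dashed line at 5. On day 7 many red points lie close to 0, and on every day the called genes that differ by 1 or more lie below 0.

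Other probe sets of the bright genes mostly had the same sign where they were bright themselves. The 22 genes had 26 other probe sets, 9 of them bright in 7 genes. Of the 34 called day values with a second bright probe set, 33 had the same sign there and 32 were called. The 17 dim ones were called with the same sign in 34 of 62 such values and with the other sign in 0. For Kcnip4 another probe set gave −3.85, −3.47, −3.79, −3.73 and −3.75 against sham, and from day 1 to day 3 it moved from a mean of 2.50 to 2.88 (0.38, adjusted p = 0.153), near the lower quartile of the arrays. For Kcnc2 the other bright ones gave −2.72, −2.28, −2.57, −2.15 and −2.22 and −1.95, −1.47, −1.83, −1.76 and −1.73. A second probe set of Kcnd3 was level, at 0.01, −0.22, −0.21, 0.10 and −0.10. The dim second probe set of Kcnk6 was called on no day. Both other probe sets of Kcnma1 were dim, at −0.05 and −0.14 on day 3, and with all 3 averaged Kcnma1 was 0.43 higher on day 3. Both others of Kcnq5 were dim too, at 0.01 and −0.05 on day 1, and averaged Kcnq5 was −0.39 on day 1.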

How the data were processed

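RNA of 24 rats was hybridised to Affymetrix rat expression arrays. The deposited values are log2 expression per probe set, which the authors made with affy 1.12.2 and GCRMA, by the methods for each time point separately. No normalization was added. The labels give 0.5 µg of starting RNA and the methods another amount.

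The values cover 31099 probe sets. Of these, 57 are array controls, 20832 carry 1 gene symbol in the platform annotation, 436 several and 9831 none. For each of 14218 genes the brightest probe set by its mean over all arrays was used. All 74 potassium channel genes matched RefSeq by gene ID. Groups came from the labels. All probe sets were fitted with limma 3.58.1 in R 4.3.3 (6 groups, contrasts, eBayes without trend, 18 residual degrees of freedom), and in each of 10 comparisons the p-values of the 1-symbol probe sets were adjusted together (Benjamini-Hochberg, threshold 0.05). The fit was tested on simulated data. Arrays have no counted depth, so their number, 4 a group, limits the precision, and probe sets near the lower quartile of an array have no exact level.

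The genes, the gene lists and the alternatives were chosen with earlier results of these data known. Named genes are bright genes with an adjusted p under 0.05 and a difference of at least 1 (the 10 highest and 10 lowest a day), called members of classes with under 6 bright genes, 11 genes listed for microglia, vessels and axons, and dim genes called by at least 1. Not all of these have full values. Alternatives were a fit of the 2 groups compared, median centring, quantile normalization, moderation with a trend or a robust prior, the methods' t-test, bright probe sets only, adjustment over all probe sets but controls, averaging the probe sets of a gene, the replicate number as a block, 3 arrays left out together, and each array left out in turn. Figures were drawn with matplotlib 3.10.9.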

Additional observations from a re-analysis of the deposited data

Results flagged for a closer look

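Each bright gene was looked at in each group of 4 rats for 1 rat far from the other 3 by Dixon's test, which flags about 1 in 20 groups by chance, and 11 of 132 groups were past its critical value. In day 14 rat 3 there were 3 low values: Kcnd2 at 6.68 with the nearest rat at 8.85, Kcnip1 at 5.11 with the nearest at 7.03, and Kcnab2 at 5.07 with the nearest at 5.87. This rat was also the lowest of its group in 15 of the 17 genes that fell, and its neuronal list mean was the lowest of day 14. On day 1 Kcnab2 was high in rat 1 (6.31, nearest 5.84), Kcns3 in rat 4 (4.71, nearest 3.38) and Kcne4 in rat 2 (7.46, nearest 6.77). Kcnk6 was high in day 56 rat 4 (4.66, nearest 4.04). Kcnmb4 stood apart in 4 groups, at 6.72 in day 3 rat 1 (nearest 6.06), 5.91 in day 7 rat 4 (nearest 5.68), 5.88 in day 14 rat 1 (nearest 5.75) and, on the low side, 5.31 in day 56 rat 1 (nearest 5.68).

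The difference from sham differed between days 1 and 3 in 18 bright genes, between days 3 and 7 in 12, between days 7 and 14 in 0, between days 14 and 56 in 0 and between days 1 and 56 in 13, by limma's test of the days against each other, in which the sham mean cancels.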

How the results depend on the processing

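Of 128 called differences of bright genes, 88 kept their call in all 12 other settings and with each of the 24 arrays left out, 40 lost it in at least 1, and none changed sign. With the adjusted methods' t-test the genes that differed between days 3 and 7 numbered 4, against 12, and between days 1 and 56 they numbered 7, against 13. Between days 7 and 14, where 0 were called, 1 was called with only the 2 groups compared in the fit, 1 by the unadjusted methods' t-test and 1 with the probe sets of a gene averaged, and between days 14 and 56 1 by the unadjusted methods' t-test. The causes were not tested. With single arrays left out, the count of lower genes on day 3 ran from 4 to 11, the count between days 7 and 14 from 0 to 1 (1 without sham rat 1, day 7 rat 3 or day 14 rat 3) and that between days 1 and 56 from 8 to 15. Counts of lower genes were 17 on day 1 whichever array was left out, 15 to 17 on day 7, 11 to 16 on day 14 and 10 to 14 on day 56. The replicate numbers pair no samples: of 40 pairs of same-numbered arrays 7 correlated above 0.1 in their deviations, and no comparison had all 4. With the replicate number as a block, lower genes numbered 17, 9, 16, 13 and 13 on the 5 days, higher genes 2, 3, 3, 3 and 3, and genes that differed between days 17, 12, 0, 0 and 11 (days 1 and 3, 3 and 7, 7 and 14, 14 and 56, and 1 and 56).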
